A study of Mus musculus with 4 samples.

Results

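The very long genes on 11 mouse chromosomes were examined for breaks inside them in 4 liver tumours. A name of the array design counted as a very long gene when at least 20 probes of its own lay on 1 of these chromosomes (1 to 5, 7, 10, 11, 14, 16 and 17) and its first and last probe were at least 600 kb apart in mm9. Lsamp was left out. The limits on length and probes used positions only and no measured ratio. The chromosomes and the omission of Lsamp were chosen with earlier results of these data known. The counts below therefore describe these chromosomes and not the whole genome. The rule gave 118 names, out of 9384 names with at least 3 own probes on a chromosome. The 545 shorter names with at least 20 own probes on the same chromosomes served for comparison.

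Tumours came from 4 mice, 1 tumour each, untreated, male, on a C57BL/6J background and with Trp53, the gene of the p53 tumour suppressor, lost in the liver. Tumour DNA labelled with Cy5 was hybridised with Cy3-labelled reference DNA on 1 array per tumour, so tumour and array cannot be told apart. The design text describes the reference as spleen DNA pooled from 3 littermates of the same sex, while the labelling protocol names liver, and the labels give Trp53-/- and male for both channels. The Cre or other driver of the liver-specific loss, the age of the mice and the share of tumour cells are not given in the sources used here, there was no control tumour, and every ratio was read against 0, so variation of the reference itself is not measured.

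Very long genes are known as places where the genome breaks under replication stress. Transcription and replication of such a gene take much of the cell cycle, few replication origins start inside it, and its middle is often copied late, so that common fragile sites in mouse and man lie mostly inside genes of this kind. Deletions within Fhit, Macrod2 or Lrp1b are frequent in human tumours, and p53 is part of the response to replication stress. An intragenic deletion would show on the array as a stretch of adjacent probes below the rest of the gene. A copy lost in all cells (100%) gives a log2 ratio of -1, and a copy lost in 50% of cells gives -0.42.

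The SD of neighbouring probes was 0.26 for tumour 1 and 0.32 for tumour 2, against 0.16 for tumour 3 and 0.17 for tumour 4. The scanner file of tumour 2 marked its spread as out of range. Tumours 1 and 4 shared a slide. Over 161460 autosomal probes the arrays correlated at 0.84 (tumours 1 and 2), 0.69 (tumours 1 and 4, and tumours 2 and 4), 0.32 (tumours 3 and 4), 0.19 (tumours 2 and 3) and 0.09 (tumours 1 and 3), so tumour 3 stood apart from the other 3. The own probes of Trp53 were 2 in number, with a mean log2 ratio of 0.52, 0.32, -0.16 and 0.29 in tumours 1 to 4. The labels do not give the deleted part of the gene, so these probes do not check the genotype.

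The 118 names held 8706 probes of their own, with a median of 70 per name (20 to 203) and a median span of 866 kb. Among them, 81 names took at least 90% of the array probes in their span, at a median of 9.89 kb per probe. They are called continuous genes here, which says only that few probes of other names lay between their own. Some are transcript names without a symbol and are not shown to be 1 gene, such as AK034276 (15.5 kb per probe) and AK140922 (18.8 kb per probe). The other 37 of the 118 were names of transcripts whose probes lay scattered among other genes. AK146406 was the widest, with 25 probes over 106044 kb of chromosome 2, and M30250 followed with 52 probes over 24018 kb of chromosome 11. The longest continuous genes were Lrp1b (chr2:40459693-42506541, 203 probes, 2047 kb), which encodes an endocytic receptor of the LDL receptor family, and Macrod2 (chr2:140224267-142212190, 202 probes, 1988 kb), an ADP-ribose hydrolase. Just inside the rule stood Grip1 at 604.7 kb and just outside it AK084182 at 599.9 kb. In RefSeq's gene table of another mouse build, 59 of the names are current symbols and 9 are older symbols, such as Bai3 for Adgrb3 and Cugbp2 for Celf2. The positions of exons and introns in mm9 were not used here. GC content did not set the members apart in the median (36.7% in members and in shorter genes).

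A run was called where at least 4 adjacent own probes of a gene lay past 2 times the noise SD of that tumour, that is past 0.52, 0.63, 0.32 and 0.33 in tumours 1 to 4. In continuous genes 4 probes cover 29.7 kb in the median, and the closest 4 probes cover 16.1 kb. Over 33406 windows of 4 probes in the 4 tumours, the very long genes held 1 low run and 1 high run. In all, 1 of 118 very long genes had a low run (0.847%), against 0.452% of the 663 genes with at least 20 probes, and 1 had a high run (0.847%), against 0.151%. Each share rests on 1 gene and 1 tumour. Tumours 1 and 2 had no run in any very long gene. Their thresholds lie past the -0.42 of a copy lost in 50% of cells. No run was found in any of the genes from fragile sites.

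The low run lay in 1700112E06Rik (chr14:22841105-23874575, now Lrmda), a gene linked to melanocyte differentiation. Its own probes 101 to 104 of 118 (chr14:23726437-23748305, 21.9 kb) had mean log2 ratios of 0.61, 0.24, 0.12 and -0.43 in tumours 1 to 4. In tumour 4 all 4 probes lay between -0.48 and -0.40, while the 10 probes around them averaged 0.07. Tumour 1 moved the other way at the same probes, from 0.41 to 0.87, with 0.22 around them. Tumours 2 and 3 were not past their thresholds there. After GC correction the means were 0.62, 0.25, 0.12 and -0.42. The sequences of these probes are shown because they carry the only low run, in lower case throughout since no base is singled out. Positions are mm9 and the files give no strand.
1700112E06Rik probe 101, chr14:23726437-23726496: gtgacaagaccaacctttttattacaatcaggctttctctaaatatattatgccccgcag
1700112E06Rik probe 102, chr14:23732983-23733042: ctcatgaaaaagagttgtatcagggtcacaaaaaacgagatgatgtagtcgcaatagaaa
1700112E06Rik probe 103, chr14:23741668-23741727: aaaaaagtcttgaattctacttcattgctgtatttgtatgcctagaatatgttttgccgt
1700112E06Rik probe 104, chr14:23748246-23748305: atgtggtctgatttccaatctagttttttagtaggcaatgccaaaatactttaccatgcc

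The high run lay in AK034276, a transcript name without a symbol in the table used (chr2:96166647-97301710, 73 probes). Own probes 45 to 48 (chr2:96879120-96925099) averaged -0.22, -0.09, 0.36 and -0.09 in tumours 1 to 4. Only tumour 3 was past its threshold, with probes between 0.34 and 0.38 and a mean of 0.05 over the 10 probes around them. The excess over the threshold of 0.32 was small, and the run was not called after GC correction or with normexp background correction (0 high runs in each).

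**Figure D1:**
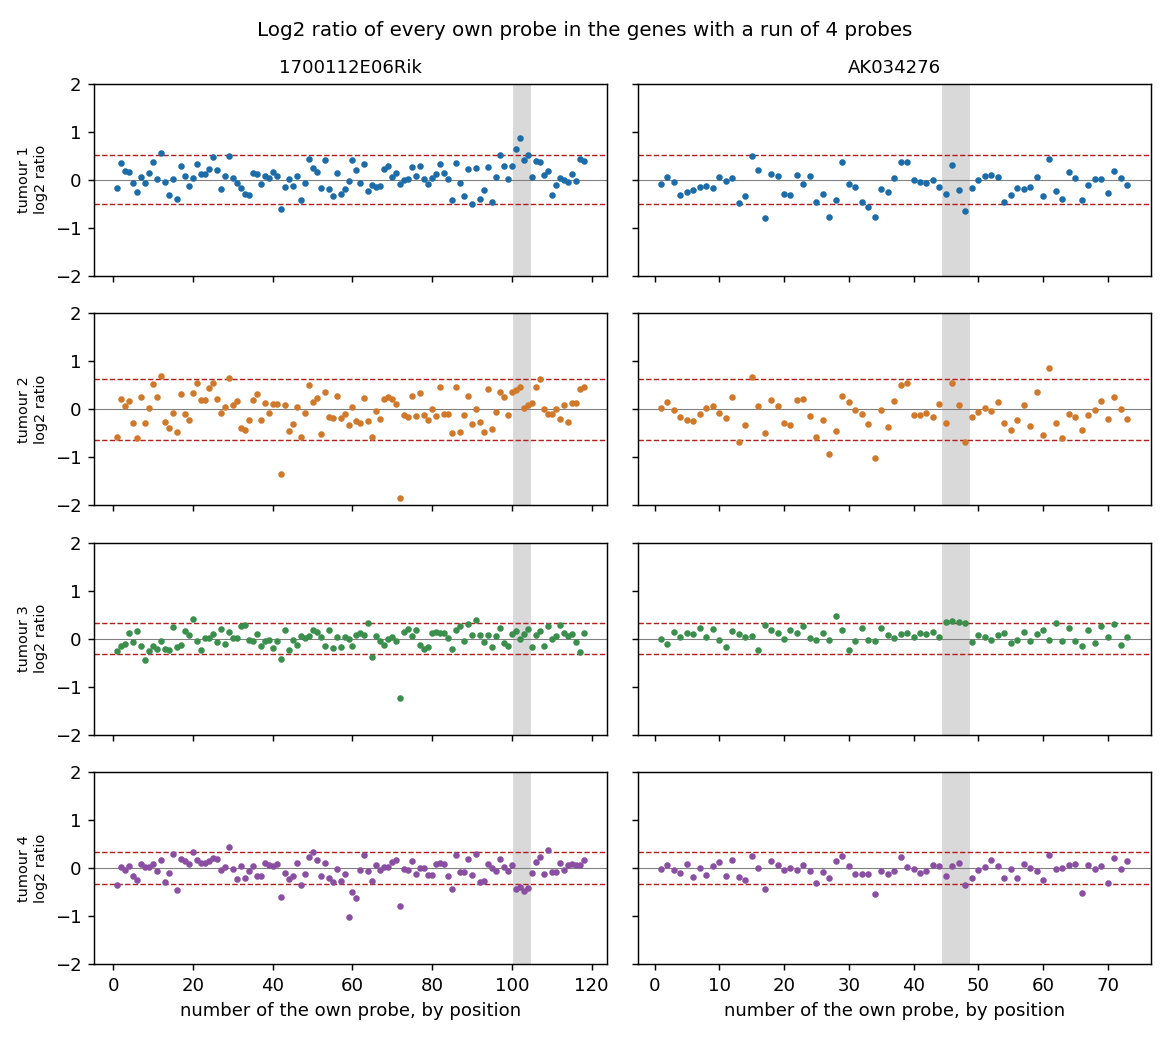
Log2 ratio (tumour over reference) of every own probe of 1700112E06Rik and AK034276, by probe number along the gene, with 1 row of panels per tumour; dashed lines mark 2 times the noise SD and grey bands the called runs. In the band of 1700112E06Rik the probes of tumour 4 average -0.43 and those of tumour 1 0.61, and in the band of AK034276 those of tumour 3 average 0.36.

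Shorter genes had 2 low runs and 0 high runs in 61981 windows. The low runs lay in Car10, at -0.50, -0.51, -0.50 and -0.51 in tumours 1 to 4, and in Msi2, at -0.40, -0.62, -0.31 and -0.69, and both were called in tumour 4 only. Per 1000 windows the low runs of very long genes came to 0, 0, 0 and 0.120 in tumours 1 to 4 and those of shorter genes to 0, 0, 0 and 0.129. The mean difference, very long minus shorter genes, was -0.0023 (n = 4), and came from tumour 4 alone. With a single tumour other than 0 an exact sign-flip test gives p = 1 at any size, so the difference could not be tested. With 4 tumours an exact sign-flip test cannot go below p = 0.13 in any case. By the same rule Lsamp, the gene left out, held a low run of 11 probes in tumour 4 (chr16:41702133-41794655), where its probes averaged 0.05, -0.77, 0.00 and -4.74. The Cy5 signal of tumour 4 did not rise well above background at 6 of the 11, so that value is a bound. No run of own probes of such depth was found in a very long gene. Between the own probes of M30250, 11 probes of other names (chr11:70989862-71107103) averaged -4.37 in tumour 2 and were also far below 0 in tumours 1, 3 and 4.

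Averages over 8 adjacent probes, which lower the noise of a stretch to 0.09, 0.11, 0.06 and 0.06 in tumours 1 to 4, were examined next. A window was called past a mean of 0.4 in either direction. In the very long genes, 4 stretches were low, all in tumour 2, and 2 were high, both in tumour 1 and in overlapping probes of 1 gene. Low windows were found in 3.39% of very long genes (4 genes) against 3.62% of the 663 genes, and high windows in 0.847% against 0.603%. The shorter genes had 4, 23, 1 and 4 low stretches in tumours 1 to 4. The very long genes had 0, 4, 0 and 0. Per 1000 windows that is 0.13 for very long and 0.60 for shorter genes on average, lower for very long genes in 4 of 4 tumours, with a two-sided exact sign-flip p of 0.13, the smallest the design allows.

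The 4 low stretches were in Thsd7b, Fhit, Agbl4 and M30250. Of these, Thsd7b and Agbl4 were chosen for the text after their values were seen. Thsd7b encodes a protein with thrombospondin repeats, and its probes 3 to 11 (chr1:131195400-131280718) averaged -0.25, -0.46, 0.04 and -0.28 in tumours 1 to 4. In Fhit, which encodes a dinucleoside triphosphate hydrolase and is the best known fragile-site gene, probes 109 to 116 (chr14:11422490-11496985) averaged -0.28, -0.42, -0.09 and -0.28. Agbl4, a carboxypeptidase that trims glutamate from tubulin, had -0.26, -0.42, -0.03 and -0.11 over probes 80 to 87 (chr4:110869112-110937359). All 3 genes were lowest in tumour 2 over these stretches, with tumours 1 and 4 also below 0 and tumour 3 nearest to 0 or above it. The probes of the Fhit stretch had a GC content of 35.0%, against 36.7% over the whole gene. After GC correction it stood at -0.21, -0.38, -0.10 and -0.25, which is no longer past 0.4 in tumour 2. The GC-corrected stretches in Thsd7b and Agbl4 were at -0.46 and -0.41 in tumour 2. In Fhit the single probe 115 stood at -0.97, -1.20, -0.80 and -1.23, and without it the other 7 averaged -0.18, -0.31, 0.01 and -0.14. In M30250 probe 39 stood at -2.12, -2.82, -0.73 and -2.33, and without it the other 8 of the stretch averaged 0.0021, -0.07, -0.08 and -0.05. Without their lowest probe the stretches of Thsd7b and Agbl4 averaged -0.35 and -0.37 in tumour 2, and none of the 4 was then past 0.4. Leaving out the lowest probe always raises a mean, so this does not show that each stretch rests on 1 probe. The lowest probe of the Agbl4 stretch was at -0.77 in tumour 2, against -2.82 in M30250. These values were computed after the data were seen.

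Both high stretches, in tumour 1, overlapped the run of 1700112E06Rik and each other, at probes 97 to 104 and 100 to 108. Probes 97 to 104 averaged 0.44, 0.22, 0.07 and -0.18 in tumours 1 to 4. This was the highest window of all very long genes in tumour 1. The lowest window of all in tumour 4 lay elsewhere in the same gene, at probes 54 to 61, which averaged -0.04, -0.11, -0.02 and -0.38. Within it probes 59 to 61 (chr14:23364372-23383481) averaged -0.72 in tumour 4, a stretch of 3 probes and so too short for a run. The lowest windows in the other tumours were -0.38 in Nrg3 (tumour 1), -0.49 in M30250 (tumour 2) and -0.28 in AK201860 (tumour 3). Each of these 4 windows held 1 much lower probe: without it the other 7 averaged -0.30 in Nrg3, -0.16 in M30250, -0.16 in AK201860 and -0.29 in 1700112E06Rik. None of the windows reached the -1 of a copy lost in all cells. The tumour 2 windows of M30250, Thsd7b (-0.48), Fhit (-0.42) and Agbl4 (-0.42), and the low run at -0.43, were at or past the -0.42 of a copy lost in 50% of cells.

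**Figure D2:**
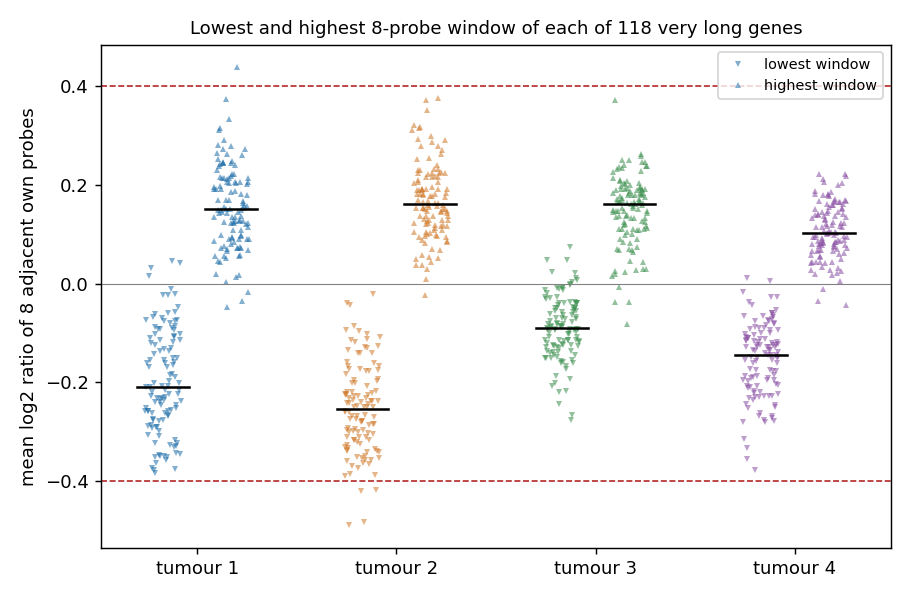
Lowest (left, triangles down) and highest (right, triangles up) mean log2 ratio of 8 adjacent own probes in each of 118 very long genes, by tumour; black bars are medians over genes and dashed lines mark 0.4 in either direction. The medians of the lowest windows are -0.21, -0.25, -0.09 and -0.14 in tumours 1 to 4, and tumour 2 reaches -0.49 in M30250, where a single probe is at -2.82.

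The fragile-site genes were listed from general knowledge of common and late-replicating fragile sites. The list of 37 names met 14 very long genes, among them Auts2, Ctnna3, Dlg2, Dpyd, Fhit, Grid1, Lrp1b, Macrod2, Magi2, Pard3b, Ptprg and Sdk1. They carried 72 to 203 probes each over 668.5 to 2047 kb. Their gene means lay between -0.12 and 0.11 in all 4 tumours, and tumour 3 had the highest mean in 11 of the 14. Median gene means were -0.04, -0.04, 0.04 and -0.0078 in tumours 1 to 4, beside -0.02, -0.03, 0.04 and -0.01 over all 118 very long genes.

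Lrp1b averaged -0.12, -0.10, 0.11 and -0.0083 over its 203 probes in tumours 1 to 4. Its lowest 8-probe windows stood at -0.32, -0.37, -0.05 and -0.14. Macrod2 averaged -0.05, -0.04, 0.07 and 0.01, with lowest windows of -0.29, -0.33, -0.13 and -0.20. Both genes were thus above 0 in tumour 3 and below 0 in tumours 1 and 2. Ctnna3, a catenin of cell junctions, averaged -0.06, -0.07, 0.06 and -0.04, with lowest windows of -0.33, -0.34, -0.10 and -0.23. Fhit as a whole was at -0.014, -0.0047, 0.05 and -0.0057. Dpyd, the first enzyme of pyrimidine breakdown, had the lowest mean over the tumours among the 14, with -0.11, -0.08, 0.03 and -0.07. Ptprg, a receptor tyrosine phosphatase next to Fhit on chromosome 14, had the highest, with 0.06, 0.06, 0.02 and 0.03. None of these 14 genes held a run of 4 probes or passed either test across genes described below, and the only segment ends inside them were 1 in Magi2.

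**Figure D3:**
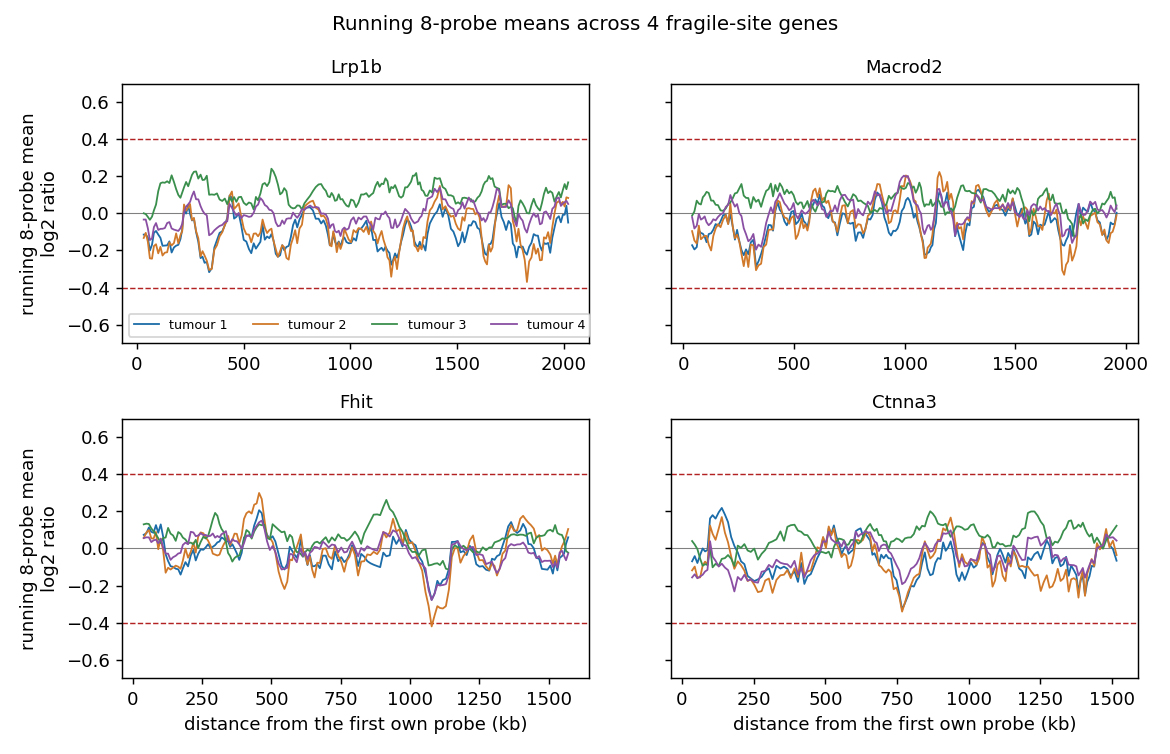
Running mean log2 ratio of 8 adjacent own probes against distance from the first own probe in kb for Lrp1b, Macrod2, Fhit and Ctnna3, with 1 line per tumour and dashed lines at 0.4 in either direction. The lines of tumours 1 and 2 run close together, that of tumour 3 lies mostly above them, and the deepest dip is that of Fhit in tumour 2 at -0.42.

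On the other autosomes, 10 more genes of the list met the same limits of length and probes, among them Cntnap2, Csmd1, Dcc, Exoc4, Immp2l, Pde4d, Prkg1, Rora and Wwox. Relative to the median of their own chromosome they had 0 runs, and their means lay between -0.11 and 0.06. Their lowest 8-probe windows were -0.40, -0.45, -0.19 and -0.29 in tumours 1 to 4. Cntnap2, a cell adhesion gene with 218 probes over 2223 kb, was at -0.10, -0.08, 0.03 and -0.05. Wwox, an oxidoreductase gene deleted in many human tumours, was at 0.04, 0.04, -0.02 and -0.01. The other 13 names of the list were not measured as a very long gene with 20 probes on an autosome.

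Segment ends, which are changes of level found by penalised least squares along each chromosome, were counted between the first and last own probe of each gene. There were 28, 12, 53 and 38 in very long genes in tumours 1 to 4, 131 in all, and 61 of these lay in M30250 and 41 in AK146406, whose spans hold probes of 391 and 924 other names. Ends were counted per name, so an end where spans overlap counts more than once, as in AK160301 and AK146406 in tumour 4. Without tumour 3 the count was 78. The continuous genes held 3, 2, 6 and 10, or 21 in all, in 11 genes. Of all very long genes, 19 (16.1%) held an end in at least 1 tumour, against 7.69% of the 663 genes with at least 20 probes, and no allowance was made for their greater length. Of the 21 ends, 15 bordered a segment of 1 probe. Such segments in Ptprt, Cugbp2, Bai3, ENSMUST00000088516 and Gpc5 are the same probes that are described below as single probes. The steps at the other 6 ends were between 0.07 and 0.18 in size. No end in a continuous gene had at least 4 probes on both sides and a step of at least 0.2, a stricter count that was added after the data were seen.

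Nell1, which encodes a secreted protein with epidermal growth factor-like repeats, held the largest of these steps. In tumour 1 the level went from 0.05 to -0.13 and in tumour 2 from -0.02 to -0.15, between the same adjacent probes (chr7:58022885-58033560). Taken over the 20 array probes on either side, the step was -0.25, -0.25, -0.11 and -0.20 in tumours 1 to 4, so all 4 tumours stepped down there. Gpc5, a heparan sulphate proteoglycan of the cell surface, stepped from -0.09 to 0.0049 in tumour 1. Over 20 probes on either side its step was 0.19, 0.15, 0.0036 and 0.10. Magi2, a scaffold protein of cell junctions, stepped from -0.09 to -0.02 in tumour 2, with 0.15, 0.21, 0.02 and 0.09 over 20 probes. In Gpc5 and Magi2 the step was upward in all 4 tumours and smallest in tumour 3. Odz4, a teneurin now named Tenm4, stepped from 0.04 to -0.03 in tumour 3 only, where the step over 20 probes was -0.11 against 0.03, 0.0079 and 0.04 in tumours 1, 2 and 4. The last of the 6 ends was in AK140922, from 0.04 to -0.09 in tumour 1.

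Single probes gave the deepest values inside the very long genes. At a log2 ratio of -1 or below stood 16, 57, 14 and 16 of the 8706 probes in tumours 1 to 4, or 0.184%, 0.655%, 0.161% and 0.184%. In shorter genes the shares were 0.198%, 0.753%, 0.175% and 0.21%. Most of these probes passed -1 in a single tumour: 55 of the 73 probes that passed it in any tumour. This count depends on the cutoff and does not show a loss in 1 tumour only. Probe 89 of Nrg3, counted in tumour 2 alone, stood at -0.98, -1.43, -0.11 and -0.89 in tumours 1 to 4. Probe 59 of 1700112E06Rik, described below, was by contrast near 0 in tumours 1 and 3. The probes described in the next paragraphs were chosen after their values were seen.

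In 5 probes of very long genes the ratio was at or below -1 in all 4 tumours (0.0574% of the probes, against 4 probes or 0.0233% in shorter genes). The order was the other way for probes low in exactly 3 tumours, with 2 in very long and 16 in shorter genes, and those low in exactly 2 numbered 11 and 30. Ptprt, a receptor tyrosine phosphatase, had -1.33, -1.52, -1.93 and -1.68 in tumours 1 to 4 at its probe 49. In Cugbp2, an RNA-binding regulator of splicing, probe 81 stood at -1.21, -1.80, -1.13 and -1.71. Bai3, an adhesion receptor of the brain, had -1.11, -1.42, -1.23 and -1.54 at probe 38. The 10 probes around each of these averaged between -0.12 and 0.10 in every tumour, so the low value did not extend to the neighbours. The other 2 were in ENSMUST00000088516 (-1.06, -1.37, -1.27 and -1.67) and AK136482 (-1.42, -1.60, -1.03 and -1.37). All 5 probes counted as well above background, but they were among the dimmest of the array. Their tumour signal lay at or below the percentile of 0.43 on every array, and their reference signal lay between the percentiles 0.356 and 10.9. With normexp background correction they ranged from -0.96 to -0.49 and none reached -1. The part of signal strength in these values was not tested. The 5 probes are shown because they are low in every tumour.
Ptprt probe 49, chr2:161807763-161807822: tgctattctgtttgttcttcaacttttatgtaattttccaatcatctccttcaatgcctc
Cugbp2 probe 81, chr2:7225841-7225900: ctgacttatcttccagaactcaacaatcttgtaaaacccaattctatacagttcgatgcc
Bai3 probe 38, chr1:25525007-25525066: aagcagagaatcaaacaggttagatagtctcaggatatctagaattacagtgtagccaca
ENSMUST00000088516 probe 15, chr5:18961475-18961534: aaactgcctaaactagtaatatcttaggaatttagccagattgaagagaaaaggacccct
AK136482 probe 64, chr17:53346398-53346457: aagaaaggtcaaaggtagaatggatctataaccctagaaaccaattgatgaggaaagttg

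A further set of 7 of the 8706 probes was low in tumour 3 alone, at -1 or below with the other 3 tumours above -0.5. The same search was not made for the other tumours, and no share in shorter genes is given. Probes low in another tumour alone also occurred: probe 59 of 1700112E06Rik stood at -0.03, -0.33, -0.0005 and -1.02 in tumours 1 to 4. Camta1, a calmodulin-binding transcription activator, had 1.78, 0.98, -1.24 and 0.79 at probe 33 in tumours 1 to 4. At another probe of Ptprt, number 25, the values were 0.95, 0.59, -1.33 and 0.33. In Gpc5, probe 148 stood at 0.92, 0.46, -1.25 and 0.49. Tumour 3 and the other tumours thus lay on opposite sides of 0 at these probes, while the 10 neighbours averaged between -0.07 and 0.16. The remaining 4 were 2 probes of AK201860 and 1 each of Ptprg and AK139513. The tumour signal of the Camta1 probe lay at the percentiles 97.4, 95.1 and 92.2 in tumours 1, 2 and 4 and at 0.778 in tumour 3. For the Gpc5 probe the percentiles were 27.5, 28.9 and 16.2 in tumours 1, 2 and 4 and 0.135 in tumour 3. With normexp the tumour 3 values were -0.95 (Camta1), -1.08 (Ptprt), -0.68 (Gpc5), -0.80 (Ptprg), -0.75 (AK139513) and -1.13 and -1.32 (AK201860), so 4 of the 7 no longer reached -1. In the other direction, probe 24 of Thsd7b was the only probe at 1 or above in 3 tumours, with 1.26, 1.43, 1.11 and 0.95, and the 10 probes around it averaged 0.11, 0.17, 0.04 and 0.03. With normexp it stood at 0.84, 1.30, 0.37 and 0.44, and its reference signal lay between the percentiles 1.08 and 3.00. The probes below are shown because their ratio sets tumour 3 apart or is high in all tumours.
Camta1 probe 33, chr4:150734480-150734538: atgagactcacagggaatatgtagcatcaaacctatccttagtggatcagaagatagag
Ptprt probe 25, chr2:161581596-161581655: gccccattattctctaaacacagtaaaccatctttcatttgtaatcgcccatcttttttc
Gpc5 probe 148, chr14:116864589-116864648: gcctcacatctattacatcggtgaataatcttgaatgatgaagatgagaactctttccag
Thsd7b probe 24, chr1:131394086-131394145: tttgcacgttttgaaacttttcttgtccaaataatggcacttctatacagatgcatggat

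**Figure D4:**
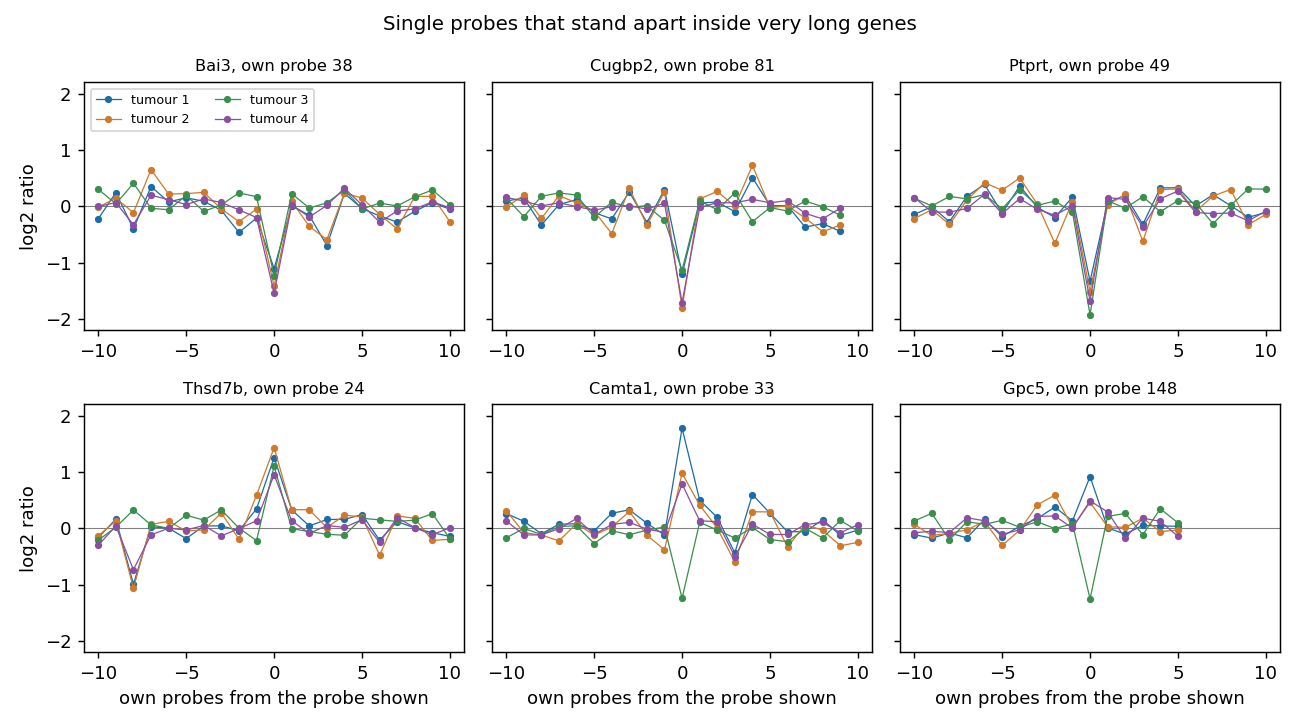
Log2 ratio of up to 10 own probes on either side of 6 single probes, against their number from the probe shown, with 1 line per tumour. The probes of Bai3, Cugbp2 and Ptprt are at -1.11 or below in all 4 tumours, the Thsd7b probe is at 0.95 or above, and the Camta1 and Gpc5 probes are low in tumour 3 only, at -1.24 and -1.25.

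Whole-gene levels were small throughout. With limma (intercept against 0, Benjamini-Hochberg over 9384 names), 0 of 118 very long genes passed an adjusted p of 0.05, and 0.192% of all names did. All names here include those on the other chromosomes and those with as few as 3 probes, so their shares are not of a like set. At an unadjusted p under 0.05 there was 1 very long gene (0.847%), against 24.3% of all names. This was Cntnap5a, a contactin-associated protein, at -0.20, -0.21, 0.03 and -0.14 in tumours 1 to 4, with a mean of -0.13 ± 0.05 (limma SE, n = 4) and an adjusted p of 0.183. The next lowest means were in Galnt13, an enzyme that starts O-linked glycosylation (-0.17, -0.17, 0.08 and -0.09), and in Cntnap5b (-0.15, -0.15, 0.06 and -0.09). Dpp10, a subunit of potassium channels, had -0.16, -0.10, 0.07 and -0.12, and Grik2, a kainate receptor, had -0.19, -0.14, 0.10 and -0.08. In these 5 genes tumours 1, 2 and 4 were all below 0 and tumour 3 was above it. The highest means, by contrast, were above 0 in all 4 tumours for ENSMUST00000106827 (0.10, 0.07, 0.03 and 0.04), Erc2, a protein of the presynaptic active zone (0.06, 0.05, 0.04 and 0.06), BC096449 on chromosome 5 and Ptprm, a receptor tyrosine phosphatase (0.05, 0.04, 0.03 and 0.07). Alk, a receptor tyrosine kinase, was high in tumours 1, 2 and 4 and at -0.0072 in tumour 3.

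Over all members, 70 had a mean below 0 and 48 above, with a median of -0.0082 beside -0.0074 over all names. The median gene mean in tumours 1 to 4 was -0.02, -0.03, 0.04 and -0.01, beside 0.01, -0.01, -0.02 and -0.02 over all names tested. In both comparisons all names include those on the other chromosomes. In 46 of 118 very long genes (39.0%) tumours 1, 2 and 4 were below 0 and tumour 3 above, against 138 of 545 shorter genes (25.3%). The reverse sign held in 6 very long genes (5.08%) and 62 shorter ones (11.4%). Across the 81 continuous genes the gene means of tumours 1 and 2 correlated at 0.90, those of tumours 1 and 4 at 0.65 and those of tumours 2 and 4 at 0.75. Tumour 3 went the other way, with -0.66 against tumour 1, -0.46 against tumour 2 and -0.10 against tumour 4. After GC correction these 6 values were 0.88, 0.66, 0.73, -0.62, -0.41 and -0.05. The genes share their arrays and lie on few chromosomes, so these are descriptions. The gene means of the 118 members correlated with GC content at 0.64, 0.45, -0.58 and 0.28 in tumours 1 to 4, in opposite direction in tumour 3. The part of GC content in the sign pattern was not tested beyond that correction.

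**Figure D5:**
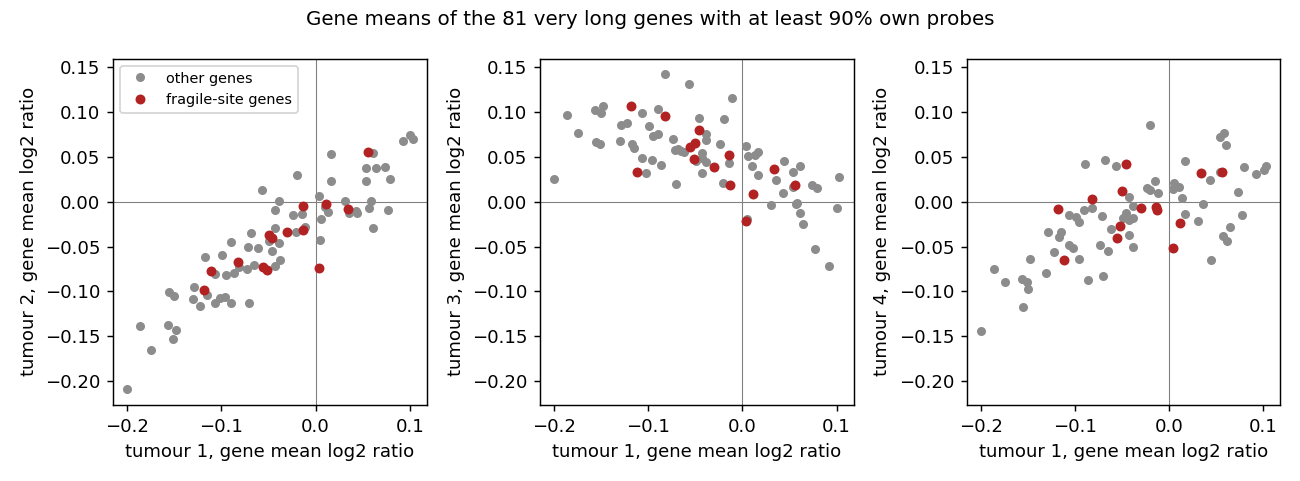
Mean log2 ratio of each of the 81 very long genes with at least 90% own probes in tumour 1 against tumours 2, 3 and 4, with fragile-site genes in red. The points rise with tumour 1 in tumours 2 and 4 and fall in tumour 3, with correlations of 0.90, 0.65 and -0.66 for tumours 2, 4 and 3.

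Single probes inside genes were compared in the same way. After each gene's mean was taken out, 7278 probes of the continuous genes correlated at 0.84 between tumours 1 and 2, at 0.74 between tumours 1 and 4 and at 0.73 between tumours 2 and 4. Between tumour 3 and tumours 1, 2 and 4 the values were 0.06, 0.16 and 0.31. In 17128 probes of shorter genes they were 0.85, 0.76, 0.74, 0.09, 0.18 and 0.34 in the same order. With normexp background correction the 3 values of tumour 3 rose to 0.35, 0.39 and 0.50. The probes share arrays and base composition, and these correlations are descriptions. The probe-to-probe pattern was therefore shared between tumours to a like degree in very long and shorter genes.

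The spread of probes within a gene, which a break in that gene would widen, was also alike in the median over genes. Breaks in a few of the genes would hardly move such a median, so this does not bear on them. The median SD of own probes around the gene mean was 0.26, 0.31, 0.17 and 0.18 in very long genes and 0.26, 0.32, 0.16 and 0.18 in shorter genes in tumours 1 to 4. The difference, very long minus shorter, was -0.0026, -0.0092, 0.0039 and 0.0038, below 0 in tumours 1 and 2 and above 0 in tumours 3 and 4. A two-sided exact sign-flip test gave p = 0.875 (n = 4 tumours, smallest possible p 0.13).

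A partial loss at the same place in all tumours would set the front part of a gene against its back part. The mean of the front set of own probes minus that of the back set was tested with limma. Each set held 50% of the probes. The 1115 names tested had at least 20 probes and could lie on any chromosome. Of the very long genes, 1 of 118 passed an adjusted p of 0.05, and 4.39% of all names did. At an unadjusted p under 0.05 there were 33 very long genes (28.0%), 15 with the front part higher and 18 with the back part higher, against 33.4% of all names. The gene that passed was AK160301, with 0.19, 0.33, 0.19 and 0.15 in tumours 1 to 4, a mean of 0.21 ± 0.03 (limma SE, n = 4) and an adjusted p of 0.024. Its 22 probes are 33.8% of those in its span on chromosome 2 (chr2:79332669-80044705), which also holds 30 probes of Pde1a, so the difference compares 2 parts of a region rather than of a single gene. Without tumour 1 its adjusted p was 0.159 and without tumour 4 it was 0.168. Among the continuous genes none passed, with 17 of 81 at an unadjusted p under 0.05. The count of calls among very long genes rose from 1 to 28 (23.7%) when tumour 3 was left out, a fit in which 420 of the 1115 names passed (37.7%), and to 25 with normexp background correction, under which 309 of the 1115 names passed.

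The continuous genes nearest to the threshold were Camta1, Bai3, Thsd7b and Plcb1, which were chosen for the text after their values were seen. Camta1 had a difference of 0.15, 0.10, 0.05 and 0.13 (limma adjusted p = 0.055). Bai3 had 0.12, 0.13, 0.05 and 0.09 (limma adjusted p = 0.056). Thsd7b went the other way, with -0.06, -0.11, -0.08 and -0.15, as did Plcb1, a phospholipase C, with -0.14, -0.12, -0.05 and -0.07 (limma adjusted p = 0.056 and 0.057). In each of the 4 genes all tumours had the same sign. Bai3 passed without tumour 3 (0.12, limma adjusted p = 0.0052) and with normexp (0.12, limma adjusted p = 0.014). Its back part holds the dim probe 38 of 68, at -1.11 or below in every tumour. The front part of Camta1 holds probe 33 of 86, at 1.78, 0.98, -1.24 and 0.79 in tumours 1 to 4. Thsd7b also holds single probes past 1 in either direction. None of these differences was computed without such probes.

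The very long genes were also grouped by lists of role, which are not complete. Dpp10, Alk and Bai3 are on none of the lists, and the list of channels and receptors holds the proteoglycan Gpc5. The counts are those of the lists as drawn up. The 15 genes of cell adhesion (cadherin- and teneurin-type proteins among them) had 0 runs and 1 gene at an unadjusted p under 0.05 in the front-to-back test, with a median gene mean of -0.02. The 8 genes on the list of channels and receptors had 0 runs and 1 such gene, with a median of -0.0072. The 7 genes of guidance and tyrosine phosphatase signalling had 0 runs and 1 such gene, with a median of 0.0017. The 21 scaffold proteins, enzymes and others had 0 runs and 7 such genes, with a median of -0.0052. The 49 transcript names had 1 run and 20 such genes, and the 18 genes on none of these lists had 1 run and 3 such genes. The front-to-back differences were thus most frequent among transcript names, of which 37 are scattered over other genes. Against 33.4% of all names tested, none of these shares was itself tested.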

How the data were processed

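Array comparative genomic hybridisation of 4 tumours was analysed from the scanner files, with 180880 spots per array. Per the file headers, the deposited log10 ratios are tumour (Cy5) over reference (Cy3), and they rest on deposited intensities that were background-subtracted and dye-normalised. The submitters' processing notes list Agilent Feature Extraction 10.7.3.1. Coordinates are mm9, as given in the deposited files.

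Ratios were converted to log2, spots of a probe were averaged (170305 probes), and each array was centred on its autosomal median. The noise SD came from differences between neighbouring probes. Segments minimised squared error, and each added segment cost 4 times log n (n probes) in units of the noise variance. Gene means and front-minus-back differences were tested against 0 with limma 3.58.1 (R 4.3.3) and Benjamini-Hochberg adjustment over all names tested. Rates were compared by exact sign-flip tests over the 4 tumours. Other steps used Python 3.11.15, numpy 2.4.6, pandas 2.3.3 and statsmodels 0.14.6. The scripts were tested on simulated data. P-values measure the spread between 4 tumours, each measured on 1 array.

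The named-gene rule (a run, a segment end, a limma call, the fragile-site list, the 5 longest, and the 5 lowest and 5 highest means) gave 44 members, of which those the results turn on are described and some are not reported here. The members and lists were chosen with earlier results of these data known. Alternatives covered background correction (normexp, offset 50), centring, GC content, dim probes, span, run length and threshold, segmentation penalty, the probes counted as a gene's own and each tumour left out. A random slide block could not be fitted.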

Additional observations from a re-analysis of the deposited data

Results flagged for a closer look

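Of 92 sets of 4 tumour values from named genes that were screened, 5 held a tumour far from the other 3 (its gap to the nearest of them, divided by the whole range, was above Dixon's critical value for 4 samples). Chance alone flags about 1 in 20 such sets, which is close to the number seen. In 3 of the 5, tumour 3 was the high one. The mean log2 ratio of Fhit was 0.0516 in tumour 3, against -0.014, -0.0047 and -0.0057 in tumours 1, 2 and 4. AK140922 stood at 0.0567 in tumour 3, against -0.07, -0.07 and -0.05, and AK136482 at 0.0267, against -0.07, -0.06 and -0.06. For AK140922 the front-minus-back difference was -0.00827 in tumour 4, against 0.04, 0.05 and 0.05 in tumours 1 to 3. Grid1, a glutamate receptor subunit, had a mean of -0.00851 in tumour 2, against 0.03, 0.04 and 0.03 in tumours 1, 3 and 4.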

How the results depend on the processing

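The count of very long genes called on their mean stayed at 0 under every alternative run. The difference in probe spread (-0.0010), whose test cannot pass 0.05 with 4 tumours, changed sign: it was 0.00039 with normexp, 0.00064 with GC correction, 0.0017 without tumour 2 and 0.0043 with spans of 1000 kb. The 1 low run became 3 with spans of 400 kb, 4 past 1.5 times the noise SD, 0 past 3 times or past a fixed 0.5, 3 with runs of 3 probes, 0 with 6, 7 with all probes of the span and 4 with 8-probe windows. Leaving out 1 tumour gave 0 to 1, with 0 without tumour 4. The 1 high run became 0 with normexp, GC correction, 3 times the noise SD, a fixed 0.5, runs of 6 or the gene's own median as level, and 2 past 1.5 times, with all probes of the span or with 8-probe windows. Leaving out 1 tumour gave 0 to 1, with 0 without tumour 3. The 131 segment ends became 41 with normexp, 337 and 59 with a penalty of 2 and 8 times the log, and 78 to 119 with 1 tumour left out. They were 21 in names with at least 90% own probes, 4 with at least 4 probes on both sides and a step of 0.2, and 0 with both limits, which were chosen after seeing the data. The difference in low-run rate (-0.0023 per 1000 windows) was 0.0138 with normexp and also with the gene's own median, -0.0185 with GC correction, 0.0551 and 0.0449 with spans of 400 and 1000 kb, 0.0229 past 1.5 times the noise SD, 0.0573 with all probes of the span and -0.474 with 8-probe windows. It was -0.0031 to 0 with 1 tumour left out, and its direction is thus not settled. The 1 call of the front-to-back test became 25 with normexp, 6 and 0 with spans of 400 and 1000 kb, 0 in names with at least 90% own probes and 0 to 28 with 1 tumour left out, with 0 without tumour 1 or tumour 4 and 28 without tumour 3. The causes of these changes were not tested. Among single named genes 796 values stayed, 25 moved, 13 gained and 2 lost significance, and 0 reversed. No paired analysis was possible because each tumour is a separate mouse in a single group. Noise limits what can be seen: losses under 4 probes, or present in few cells, could not be called as runs, least of all in tumour 2. In tumours 1 and 2 even a copy lost in 50% of cells, at -0.42, falls short of the run thresholds of 0.52 and 0.63.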
